A study of Mus musculus with 14 samples.

Results

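Iron enters the body through the epithelium of the small intestine, and 10 genes of iron uptake, storage, export and sensing were followed in the ileum mucosa of mice lacking the nuclear receptor co-repressor NCoR1 in this epithelium. The genes were chosen by name from the 54532 genes of the deposited table, and all 10 were found in it: Cybrd1, Slc11a2, Slc46a1, Heph, Slc40a1, Fth1, Ftl1, Tfrc, Ireb2 and Epas1. RNA was sequenced from 7 WT mice, in which both Ncor1 alleles were floxed (NCoR1 flox/flox), and from 7 IKO mice, which carried the same floxed alleles and in addition a Cre recombinase driven by the villin promoter. All 14 mice were males fed a high-fat diet (HFD) for 15 weeks, and each gave 1 library. The labels give no age. The villin promoter acts in epithelial cells, so that immune, stromal and vascular cells of the scraped mucosa kept Ncor1 in the IKO mice, and the loss of Ncor1 from the epithelium was constitutive rather than induced in the adult.

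In an absorptive cell, ferric iron of the diet is reduced at the luminal membrane and carried in by a divalent metal transporter, while heme has uptake routes of its own. Iron that enters is either held in ferritin, a shell built of heavy and light chains, or leaves through ferroportin at the basolateral membrane, where a copper oxidase converts it to the ferric form that transferrin binds. Cytosolic iron is sensed by iron regulatory proteins, which bind hairpins called iron-responsive elements in mRNA. A hairpin in the 5′ UTR lets these proteins block translation when iron is scarce, and hairpins in the 3′ UTR of the transferrin receptor mRNA protect it from decay. The hypoxia-inducible factor HIF-2α, encoded by Epas1, is itself iron-sensitive through its prolyl hydroxylases and induces apical transport genes in the duodenum. Most dietary iron is taken up in the duodenum, and the ileum is not the main site of absorption.

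The hairpins are shown because they tie 6 of the 10 genes to a shared sensor. They were located in the GENCODE vM21 transcripts of GRCm38 on the transcript strand, as a C followed by 5 bases, the loop letters CAGTGN, and 5 bases that had to pair with the first 5. In the lines that follow, each sequence is written 5′ to 3′ and the capitals mark the 6-base loop.
Fth1, 5′ UTR, exon 1 of 4, chr19:9982732-9982759, plus strand: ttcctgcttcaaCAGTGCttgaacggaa
Ftl1, 5′ UTR, exon 1 of 4, chr7:45459780-45459807, minus strand: gtcttgcttcaaCAGTGTttgaacggaa
Slc40a1, 5′ UTR, exon 1 of 8, chr1:45925466-45925493, minus strand: caacttcagctaCAGTGTtagctaagtt
Tfrc, 3′ UTR, exon 19 of 19, chr16:32631219-32631246, plus strand: aattatcggaagCAGTGCcttccataat
Tfrc, 3′ UTR, exon 19 of 19, chr16:32631598-32631625, plus strand: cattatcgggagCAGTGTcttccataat
Tfrc, 3′ UTR, exon 19 of 19, chr16:32631663-32631690, plus strand: ctatatcggagaCAGTGAtctccatatg
Tfrc, 3′ UTR, exon 19 of 19, chr16:32631710-32631737, plus strand: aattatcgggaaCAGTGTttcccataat
Epas1, 5′ UTR, exon 1 of 16, chr17:86753768-86753796, plus strand: tacaatcctcggCAGTGTcctgagactgt
Slc11a2, 3′ UTR, exon 16 of 16, chr15:100395153-100395181, minus strand: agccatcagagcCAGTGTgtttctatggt

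The Epas1 and Slc11a2 sequences matched only when 1 unpaired base was allowed in the second arm, a setting added after the fully paired search. A fully paired match was found in a UTR of 160 of 21901 coding genes (0.731%), and a match with 1 unpaired base in 283 of them (1.29%). The Fth1 and Ftl1 hairpins share their stem letters next to the loop, and Tfrc is the only one of the 10 genes with several sites. The Slc11a2 site lies in 1 of its 6 coding transcripts and the Slc40a1 site in 1 of 4, and the counts do not resolve transcripts. The Epas1 site lies before the start of the Epas1 model in the deposited table. No match was found in Heph, Cybrd1, Slc46a1 or Ireb2. A match is a description of letters and was not tested for function.

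Depth was 14749669 to 21557468 counts per library. The mitochondrial genome supplied 50.3% of all counts of IKO 4, 23.9% of those of WT 3 and 3.49% to 10.3% in the other 12 libraries, and results are therefore also given without IKO 4 where its place changes them. Levels are given as CPM, the counts of a gene scaled to library size with TMM factors. Fold changes are IKO over WT from the quasi-likelihood test of edgeR, and a gene was called where p, adjusted after Benjamini and Hochberg over 13846 tested genes, was under 0.05. Ncor1 lay between 106 and 195 CPM in WT and between 31.7 and 64.0 CPM in IKO mice, 2.66-fold lower (adjusted p = 0.00051). Epithelial genes dominated the libraries, with a summed level of 8 enterocyte markers of 21210 to 99043 CPM in WT and 44734 to 84019 CPM in IKO mice, and 0 of the 8 called by edgeR, by DESeq2 or at an unadjusted p under 0.05. Other cells were present too, and smooth muscle markers summed to 11086 CPM in WT 4 against a WT median of 22.4 CPM. Fibroblast markers summed to 6.28 to 354 CPM in WT and 8.32 to 44.7 CPM in IKO mice, 4 of 5 lower at an unadjusted p under 0.05, 0 called by edgeR and 1 called lower by DESeq2. Of all 13846 tested genes, 4213 had an unadjusted p under 0.05. Of these, 1651 were higher, which is 11.9% of all tested genes, and the rest were lower. DESeq2 called 1186 of all tested genes (8.57%) higher and 1298 lower. These numbers apply wherever such counts are given below. In bulk RNA, fewer cells of a type and less RNA per cell cannot be told apart.

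Slc46a1 and Epas1 rose in the IKO ileum, and none of the other tested iron genes passed the edgeR test in either direction. Of the 10 genes, 9 had enough counts to be tested and Cybrd1 did not. Of all tested genes 8.67% were called, 4.38% higher and 4.28% lower, and of the 9 iron genes 2 were called higher and 0 lower. At an unadjusted p under 0.05, 4 of the 9 were higher and 0 lower, beside 11.9% of all tested genes that were higher. DESeq2 called 3 higher and 0 lower, beside 8.57% of all tested genes called higher. The log2 fold change was above 0 for 8 of the 9 genes, against 43.5% of all tested genes, and its median was 0.55 against -0.09. The 8 enterocyte markers leaned the same way, with 7 above 0 and a median of 0.34. Their summed level had a median of 56415 CPM in WT and 73058 CPM in IKO mice. How these shifts relate was not tested. The summed level of the 10 genes, most of it ferritin, was 1576 to 2132 CPM in WT and 2316 to 3467 CPM in IKO mice. The sums of the genotypes did not overlap, but they mostly reflect Fth1 and Ftl1, neither of them called by edgeR. No share of gene sums that separate in this way was computed. Of the 9 tested genes 0 separated the genotypes fully. Among all tested genes, 1.83% had every IKO mouse above every WT mouse and 1.26% had every IKO mouse below.

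**Figure D1:**
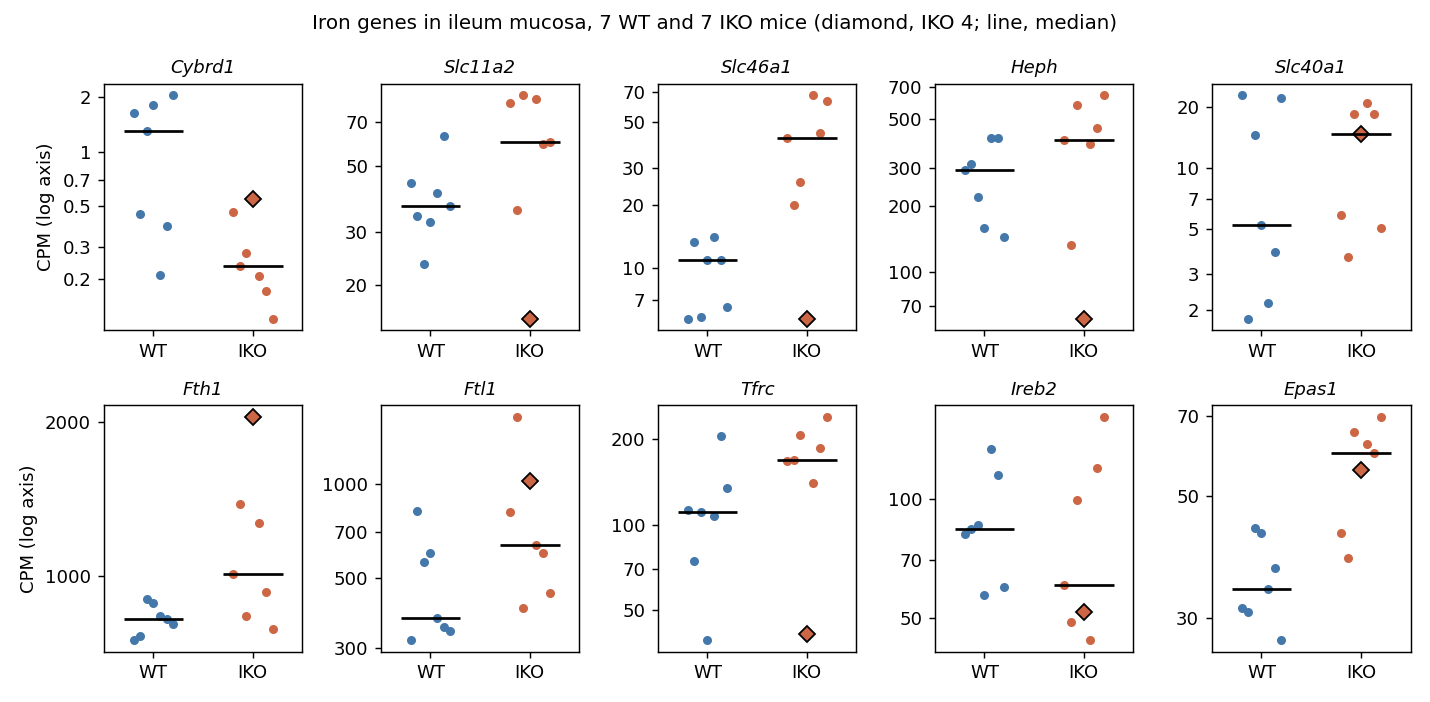
Each panel plots 1 iron gene in CPM on a log axis for 7 WT (blue) and 7 IKO (orange) mice, with a line at the median and a diamond for IKO 4. Slc46a1 of 6 IKO mice lies above every WT mouse while IKO 4 lies among the lowest, and the same mouse is lowest of the IKO group for Slc11a2, Heph and Tfrc and highest for Fth1.

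Of the luminal uptake genes Slc46a1 was called higher, Slc11a2 was not called, and Cybrd1 had too few counts for the fit. Slc46a1 (ENSMUSG00000020829, chr11:78465697-78472059, plus strand, mm10 as in all gene positions of the table) encodes the proton-coupled folate transporter, which was first described as a heme carrier. Its level in WT mice was 5.68 CPM at the lowest, 10.9 at the median and 14.1 at the highest, and in IKO mice 5.68, 42.1 and 67.8 CPM. The lowest IKO mouse lay among the WT mice, and the other 6 IKO mice lay above all WT mice. Slc46a1 was 4.02-fold higher in IKO mice (95% confidence interval 2.16 to 7.49, adjusted p = 0.0124). The lowest IKO mouse was IKO 4, and without it the log2 fold change went from 2.01 to 2.20 (adjusted p = 0.00153). The call was lost with limma on log2(FPKM + 1) without a filter (log2 fold change 1.53, adjusted p = 0.0702) and with the replicate number as a block (1.84, adjusted p = 0.0667).

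Slc11a2 (ENSMUSG00000023030, chr15:100387898-100425072, minus strand) encodes DMT1, the divalent metal transporter of the brush border. WT mice ranged from 23.4 to 62.8 CPM with a median of 36.7, and IKO mice from 15.4 to 86.4 CPM with a median of 59.9. The ranges overlapped: the WT median was exceeded by 5 of 7 IKO mice, while IKO 4 lay below all WT mice. Its fold change of 1.54 (95% confidence interval 0.970 to 2.44) was not called (adjusted p = 0.192), nor was it without IKO 4 (log2 fold change 0.79, adjusted p = 0.0596).

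Cybrd1 (ENSMUSG00000027015, chr2:71117923-71142926, plus strand) encodes duodenal cytochrome b, a ferric reductase of the apical membrane. It was barely expressed, with 4 to 58 counts per library in WT and 2 to 8 in IKO mice. In CPM these were 0.209 at the lowest, 1.29 at the median and 2.05 at the highest in WT, and 0.120, 0.236 and 0.547 in IKO mice. The 4 highest WT mice lay above every IKO mouse and the other 3 lay among them, so that 0 of 7 IKO mice exceeded the WT median. As the gene did not pass the filter on low counts, its log2 CPM was compared alone, and the IKO mice were lower (exact permutation test, two-sided, unadjusted p = 0.0181, n = 7 per genotype). In an edgeR fit without the filter the log2 fold change of Cybrd1 was -1.96 and was not called (adjusted p = 0.0949).

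The basolateral genes did not separate the genotypes. Heph (ENSMUSG00000031209, chrX:96455359-96574485, plus strand) encodes hephaestin, the copper oxidase that works with ferroportin. Its level was 144, 293 and 410 CPM at the lowest, median and highest WT mouse and 61.1, 402 and 646 CPM in IKO mice. The IKO mice covered the whole WT range and went beyond it on both sides, and IKO 4 was the lowest of all 14 mice. The fold change of Heph was 1.37 (95% confidence interval 0.735 to 2.55, adjusted p = 0.487). Without IKO 4 its log2 fold change went from 0.45 to 0.64 and was not called (adjusted p = 0.219).

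Slc40a1 (ENSMUSG00000025993, chr1:45908068-45926523, minus strand) encodes ferroportin, the iron exporter. WT mice had 1.80, 5.22 and 23.0 CPM and IKO mice 3.65, 14.6 and 20.8 CPM at the lowest, median and highest. The IKO range lay within the wide WT range. The fold change was 1.20 with an interval of 0.503 to 2.85 (adjusted p = 0.794), and a doubling lay within the interval.

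**Figure D2:**
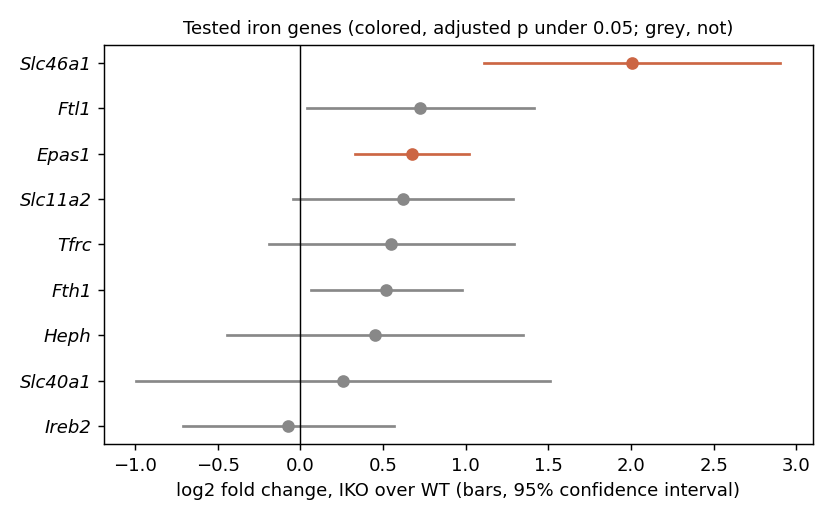
Points give the log2 fold change, IKO over WT, of the 9 tested iron genes, bars the 95% confidence interval, and color the 2 genes with an adjusted p under 0.05. Slc46a1 stands at 2.01 and Epas1 at 0.68, and the interval of Slc40a1 is the widest.

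The ferritin genes were the most abundant of the 10, and both lay higher in most IKO mice without passing the adjusted test. Fth1 (ENSMUSG00000024661, chr19:9982703-9985092, plus strand) encodes the heavy chain, which carries the ferroxidase activity. WT mice kept to a narrow range of 747 to 900 CPM with a median of 823, and IKO mice ranged from 789 to 2050 CPM with a median of 1009. Of the IKO mice, 5 lay above all WT mice. Its fold change of 1.44 (95% confidence interval 1.05 to 1.97) had an unadjusted p of 0.0275 and an adjusted p of 0.121 by edgeR, while DESeq2 called it (log2 fold change 0.55, adjusted p = 0.0477, a call that 8.57% of all tested genes received in that direction). The highest value was that of IKO 4, and without this mouse the log2 fold change of Fth1 was 0.34 (adjusted p = 0.198).

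Ftl1 (ENSMUSG00000050708, chr7:45457944-45459884, minus strand) encodes the light chain, which supports mineral formation inside the shell. Its level was 316, 374 and 819 CPM at the lowest, median and highest WT mouse and 401, 640 and 1638 CPM in IKO mice. All 7 IKO mice exceeded the WT median, yet the ranges overlapped. The fold change of Ftl1 was 1.65 (95% confidence interval 1.03 to 2.66, unadjusted p = 0.0394, adjusted p = 0.145). Without IKO 2, the highest mouse, the log2 fold change of Ftl1 went from 0.73 to 0.45 (adjusted p = 0.299). Both ferritin genes have close copies and pseudogenes in the mouse genome, and how reads shared with them were counted is not stated, so that their levels are uncertain to that extent. Within a mouse, the Fth1 to Ftl1 ratio of FPKM, a length-scaled unit, was 1.44 to 3.66 in WT and 1.30 to 3.21 in IKO mice, a log2 difference of -0.21 (exact permutation test, two-sided, p = 0.443, adjusted over 3 ratios p = 0.875).

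Tfrc (ENSMUSG00000022797, chr16:32608920-32632794, plus strand) encodes the transferrin receptor, which takes up transferrin-bound iron and in the gut is most used by crypt cells. Levels were 39.2, 111 and 204 CPM at the lowest, median and highest WT mouse and 41.4, 169 and 240 CPM in IKO mice. Of the IKO mice 6 exceeded the WT median, and the remaining one, IKO 4, was near the lowest WT mouse. The fold change was 1.46 (95% confidence interval 0.876 to 2.45, adjusted p = 0.292), and without IKO 4 the log2 value went from 0.55 to 0.72 (adjusted p = 0.119). Proliferating crypt markers, measured because dividing cells carry the receptor, summed to 151 to 437 CPM in WT and 167 to 299 CPM in IKO mice. Of these 7 markers 0 were called by edgeR, 2 were lower by DESeq2 and 3 at an unadjusted p under 0.05, and their part in the Tfrc level was not tested.

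Promoters (RefSeq, GRCm38.p6, 250 bases before to 50 after the start) were matched for 6 iron genes, and only Tfrc held ACGTG there. ACGTG is 1 form of the core of the hypoxia response element and the only form searched, on both strands. The site is shown for the link to Epas1, with the core in capitals, at chr16:32608884-32608908 on the plus strand.
Tfrc promoter: cggtaggtgtACGTGcggaaggaag
This form of the core occurs in 19.6% of 32851 promoter windows. The 6 genes have 8 windows, and only those of Tfrc held it, a share near that of all windows. The 6 matched genes were Cybrd1, Ftl1, Ireb2, Slc46a1, Tfrc and Fth1.

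Of the sensing genes Epas1 was called and Ireb2 was not. Epas1 (ENSMUSG00000024140, chr17:86753907-86833410, plus strand) had 27.4, 33.9 and 43.8 CPM at the lowest, median and highest WT mouse and 38.7, 60.0 and 69.7 CPM in IKO mice. All 7 IKO mice lay above the WT median and 5 of them above every WT mouse. Epas1 was 1.60-fold higher in IKO mice (95% confidence interval 1.26 to 2.03, adjusted p = 0.0222). It was also the iron gene for which IKO 4 was least unusual, at 55.7 CPM against a median of 61.1 CPM in the other IKO mice. Without WT 7 alone, the log2 fold change of Epas1 was 0.61 and no longer called (adjusted p = 0.0522), nor was it called with the replicate number as a block (0.66, adjusted p = 0.0584). Endothelial cells also express Epas1, and 6 endothelial markers summed to 9.37 to 51.9 CPM in WT and 8.30 to 26.3 CPM in IKO mice. Of these 0 were called by edgeR and 1 was lower by DESeq2 and at an unadjusted p under 0.05, and their part in the Epas1 level was not tested.

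Ireb2 (ENSMUSG00000032293, chr9:54863789-54912530, plus strand) encodes iron regulatory protein 2, a reader of the hairpins shown above. WT mice had 57.4, 83.7 and 134 CPM and IKO mice 44.0, 60.6 and 161 CPM at the lowest, median and highest. The genotypes overlapped over most of their ranges, and 3 of 7 IKO mice exceeded the WT median. The fold change was 0.950 (95% confidence interval 0.611 to 1.48, adjusted p = 0.889), and its sign depended on single mice. Aco1, which encodes the other iron regulatory protein, had a median of 142 CPM in WT and 243 CPM in IKO mice (log2 fold change 0.54, adjusted p = 0.116).

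Set per length in FPKM, the order of the 10 genes in WT mice by median was Fth1 (945), Ftl1 (275), Heph (37.6), Tfrc (17.3), Ireb2 (8.62), Epas1 (6.28), Slc11a2 (5.59), Slc46a1 (3.46), Slc40a1 (0.566) and Cybrd1 (0.233). Only the first 2 steps were free of overlap: Fth1 exceeded Ftl1 and Ftl1 exceeded Heph in that every WT value of the one lay above every WT value of the next, and all later neighbors overlapped. The oxidase gene Heph thus stood far above the exporter gene Slc40a1 with which its protein works. In IKO mice Slc46a1, at a median of 13.5 FPKM, moved from rank 8 to rank 5, and Ireb2, at 6.32 FPKM, from rank 5 to rank 8. Slc40a1 and Cybrd1 held the last 2 ranks in both genotypes.

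Within mice, export against import and uptake against storage showed no detectable difference between genotypes. The Slc40a1 to Slc11a2 ratio of FPKM ranged from 0.0373 to 0.438 in WT and from 0.0508 to 0.671 in IKO mice, a log2 difference of 0.13 (exact permutation test, two-sided, p = 0.871, adjusted over 3 ratios p = 0.875). The Tfrc to Fth1 ratio of FPKM, which sets an mRNA with 3′ UTR hairpins against one with a 5′ UTR hairpin, ranged from 0.0062 to 0.0348 in WT and from 0.00283 to 0.0425 in IKO mice. Its log2 difference was 0.09 (exact permutation test, two-sided, p = 0.875). Both values changed without IKO 4, and neither passed the test. The log2 difference of Tfrc to Fth1 was then 0.54 (exact permutation p = 0.189, adjusted p = 0.527). That of Slc40a1 to Slc11a2 was -0.26 (exact permutation p = 0.739, adjusted p = 0.739). The spread between mice was large, and the log2 Slc40a1 to Slc11a2 ratio had an SD of 1.70 in WT and 1.30 in IKO mice.

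IKO 4 set the lower end of the IKO group for several iron genes. Against the median of the other 6 IKO mice, its level was 5.68 against 43.2 CPM for Slc46a1, 61.1 against 429 CPM for Heph, 15.4 against 70.6 CPM for Slc11a2 and 41.4 against 177 CPM for Tfrc. Both ferritin genes went the other way, with 2050 against 969 CPM for Fth1 and 1017 against 621 CPM for Ftl1, as did Cybrd1 (log2 deviation 0.99) and Slc40a1 (0.49). Ferritin genes are the shortest of the 10, and gene length moved with the level in this library, though Cybrd1 and Slc40a1 are long genes: over all tested genes, the median log2 deviation of IKO 4 was 0.48 for 1030 genes under 1 kb and -0.25 for 3887 genes over 6 kb. The deviations of Slc46a1 (-2.90), Heph (-2.81), Slc11a2 (-2.17) and Tfrc (-2.09) were larger than these class medians. The length trend was steeper in IKO 2, with medians of 0.75 under 1 kb and -0.32 over 6 kb, and this mouse had the highest Ftl1 of all 14 mice (1638 CPM) and the second highest Fth1 (1380 CPM). The part of length and of the mitochondrial share in the levels of these mice was not tested.

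**Figure D3:**
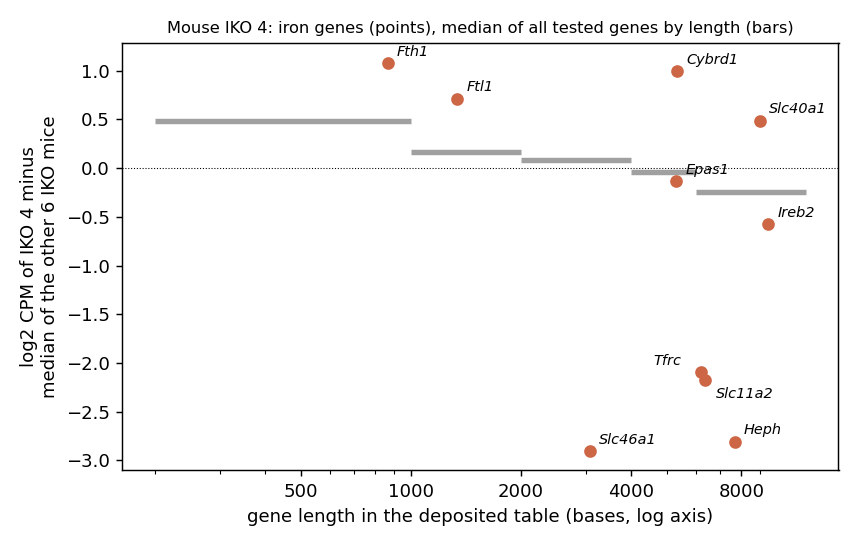
Points give, for each iron gene, the log2 CPM of IKO 4 minus the median of the other 6 IKO mice (y axis) against gene length in bases (x axis, log scale), and bars the median over all tested genes of each length class. Slc46a1, Heph, Slc11a2 and Tfrc lie between -2.90 and -2.09, far under the bars, and Fth1 and Ftl1 lie above them.

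Pairs of iron genes were also compared across the mice of 1 genotype. For Fth1 and Ftl1 in IKO mice the correlation was positive without passing the adjustment (n = 7, Pearson's r = 0.74, exact permutation p = 0.0552, Spearman's rho = 0.89, exact permutation p = 0.0123), and r was 0.68 without the 2 mice farthest from the median of Fth1. Over the 10 relations computed, neither passed the adjustment (adjusted p = 0.276 for r and 0.123 for rho by exact permutation). In WT mice, with their narrow Fth1 range, r was 0.21. Tfrc and Slc11a2 gave r = 0.82 in IKO mice, but r was -0.02 without the 2 farthest mice, so that the relation rested on those. For Slc40a1 and Epas1, a gene whose protein is known to induce ferroportin in the duodenum, r was -0.12 in WT and 0.60 in IKO mice, and 0.91 and 0.97 without the 2 mice farthest from the median of Slc40a1. For Slc11a2 and Cybrd1 it was -0.41 and -0.44, and -0.13 and 0.70 without the 2 farthest mice, so that both relations changed with those mice. None of the 10 relations passed the adjustment.

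Slc40a1 and Cybrd1 are known to be highest in the duodenum, and were set beside the ileal marker Fabp6, the bile acid binding protein of the distal small intestine. Fabp6 ranged from 186 to 7661 CPM among WT and from 24.7 to 6143 CPM among IKO mice. The 4 WT mice with the most Fabp6, WT 4, WT 7, WT 1 and WT 3, had Cybrd1 at 1.80, 2.05, 1.63 and 1.29 CPM, and the other 3 WT mice had at most 0.451 CPM. Only IKO 4, the library with the large mitochondrial share, reached the Fabp6 range of those 4 WT mice, with 6143 CPM, and it had 0.547 CPM of Cybrd1. The lowest of those 4 was WT 3, at 2930 CPM of Fabp6. IKO 3, IKO 6 and IKO 5 lay below it at 2737, 2498 and 2215 CPM, and had 0.277, 0.172 and 0.206 CPM of Cybrd1. For Slc40a1 and Fabp6, a pair chosen after their values were seen, r was 0.65 in WT (exact permutation p = 0.131) and 0.80 in IKO mice (exact permutation p = 0.0228, adjusted p = 0.228, n = 7). Summed ileal markers were 802 to 9036 CPM in WT and 1045 to 6963 CPM in IKO mice, and summed markers of the proximal small intestine 163 to 1763 CPM and 79.8 to 745 CPM, with Ghrl, a hormone gene of that list, called lower (adjusted p = 0.0329). DESeq2 called 2 proximal markers lower, Ghrl and Gip (edgeR log2 fold change of Gip -1.40, adjusted p = 0.0608), and 1 ileal marker, Fgf15 (edgeR log2 fold change -1.75, adjusted p = 0.0616, all 7 IKO mice at or below the WT median). By edgeR, 3 of the 5 ileal markers had a log2 fold change above 0, and the list median was 0.50. Slc10a2 was at 1.08, Slc51a at 0.56, Slc51b at 0.50 and Fabp6 at -0.46, and edgeR called 0 of the 5. Macrophages also carry ferroportin, and their markers summed to 43.7 to 167 CPM in WT and 26.1 to 93.0 CPM in IKO mice. WT 1, WT 3, WT 4 and WT 7 also had the highest WT sums of endothelial markers, 14.8 to 51.9 CPM against at most 12.2 CPM. The same held for fibroblast markers, 28.7 to 354 CPM against at most 13.9 CPM. IKO 1 had 44.7 CPM of fibroblast markers and 0.468 CPM of Cybrd1. These sums were set beside Cybrd1 after their values were seen. The part of the position along the gut, of endothelial cells, of fibroblasts and of macrophages in the levels of Slc40a1 and Cybrd1 was not tested.

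**Figure D4:**
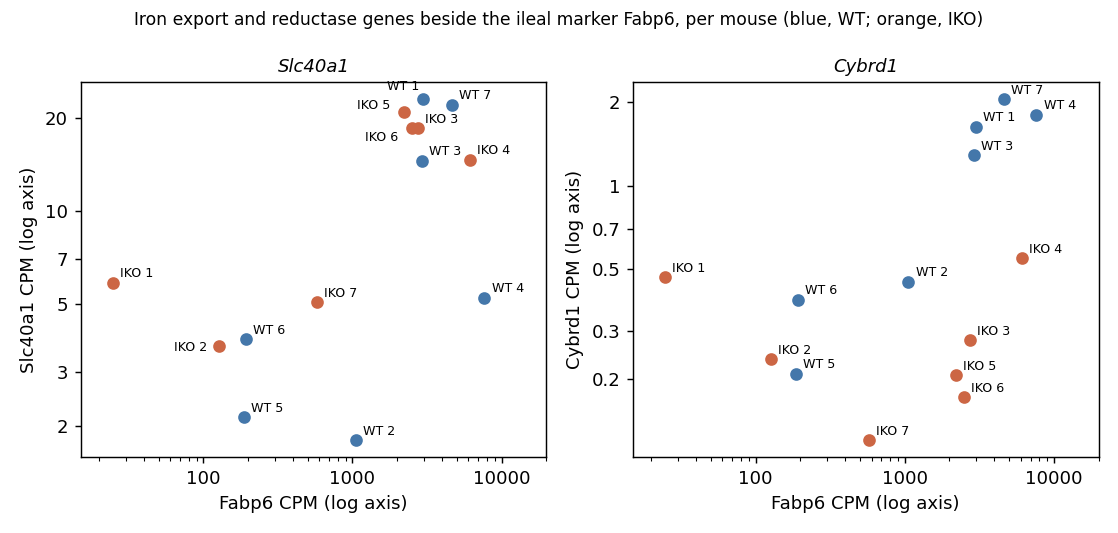
Each point is 1 mouse (blue, WT, orange, IKO), with Fabp6 CPM on the x axis and Slc40a1 (left) or Cybrd1 (right) CPM on the y axis, all on log scales. WT 1, WT 3, WT 4 and WT 7, at 2930 to 7661 CPM of Fabp6, have 1.29 CPM of Cybrd1 or more, and IKO 4, the IKO mouse within that Fabp6 range, has 0.547 CPM.

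Around the 10 genes, 8 lists with 86 further genes of iron, heme, hypoxia and folate biology were examined. Of the 73 tested, 10 were called higher (13.7%, against 4.38% of all tested genes) and 0 lower by edgeR. The lists were chosen with earlier results of these data known, so that this share is no independent support. At an unadjusted p under 0.05, 18 were higher and 2 lower, beside 11.9% of all tested genes that were higher. DESeq2 called 14 higher and 2 lower, beside 8.57% of all tested genes called higher. The median log2 fold change of the 73 was 0.15 against -0.09 over all genes. Among iron reductases and metal transporters 1 of 10 tested genes was called. This was Slc31a1, the copper importer CTR1, with 79.3, 150 and 201 CPM at the lowest, median and highest WT mouse and 174, 504 and 603 CPM in IKO mice (log2 fold change 1.59, adjusted p = 0.0060). The median of the list was -0.08, near that of all genes. The 2 genes called lower by DESeq2 but not by edgeR belong to it and are named after their values were seen: Cp, the plasma copper oxidase, at a log2 fold change of -1.71 (edgeR, adjusted p = 0.0652), and Steap2, a metal reductase, at -0.86 (adjusted p = 0.0784).

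Heme genes were among those called. Abcg2, an exporter that carries heme and porphyrins, had 92.2, 107 and 186 CPM in WT and 90.4, 412 and 536 CPM in IKO mice (log2 fold change 1.65, adjusted p = 0.0090). Flvcr2, described as a heme importer and a choline transporter, had a median of 4.80 CPM in WT and 18.6 CPM in IKO mice (log2 fold change 1.66, adjusted p = 0.0282). These were the 2 of 9 called in heme transport and breakdown, beside 4.38% of all tested genes, and the same number were higher by DESeq2 and at an unadjusted p under 0.05. The call of Flvcr2 was lost in 8 of 25 alternatives. For Hmox1, the heme oxygenase that frees iron from heme, the log2 fold change was 0.20 (adjusted p = 0.802).

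In mitochondrial iron, iron-sulfur cluster and heme synthesis 2 of 22 tested genes were called, both higher, beside 4.38% of all tested genes. Alas1, the rate-limiting enzyme of heme synthesis in most tissues, had 65.4, 88.0 and 132 CPM in WT and 209, 260 and 373 CPM in IKO mice. All 7 IKO mice lay above all WT mice, as in 1.83% of all tested genes, and the log2 fold change of Alas1 was 1.55 (adjusted p = 0.00055). The median of this list was 0.10, and edgeR called none of its iron-sulfur cluster genes. At an unadjusted p under 0.05, 5 genes of the list were higher and 0 lower, beside 11.9% of all tested genes that were higher. DESeq2 called 4 higher, beside 8.57% of all tested genes. Among these 4 were Isca1 and Glrx5 of iron-sulfur cluster assembly, which are named after their values were seen. Erythroid markers, given because red cell precursors make much heme, summed to 3.25 to 23.3 CPM in WT and 9.25 to 50.7 CPM in IKO mice. Of the 4 tested, 3 were higher at an unadjusted p under 0.05 and 0 were called by edgeR or DESeq2, and their part in the heme genes was not tested.

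Of the HIF pathway components 2 of 8 were called and of the genes commonly induced by HIF 3 of 11, all higher, beside 4.38% of all tested genes. At an unadjusted p under 0.05, 3 and 5 were higher and 0 lower, beside 11.9% of all tested genes that were higher. DESeq2 called 3 and 3 higher, beside 8.57% of all tested genes, and the list medians were 0.28 and 0.47. Egln3, a HIF prolyl hydroxylase that is itself hypoxia-induced, had a median of 80.8 CPM in WT and 162 CPM in IKO mice (log2 fold change 0.96, adjusted p = 0.0286), and Hif1an, the asparaginyl hydroxylase of HIF, 45.8 and 60.7 CPM (log2 fold change 0.49, adjusted p = 0.0471). The call of Hif1an was lost in 17 of 25 alternatives and that of Egln3 in 5 of 25. For Hif1a the log2 fold change was 0.11 (adjusted p = 0.860). Bnip3, a mitophagy receptor, had 4.12, 11.5 and 13.4 CPM in WT and 13.9, 25.5 and 35.2 CPM in IKO mice (log2 fold change 1.27, adjusted p = 0.0126). Ldha, lactate dehydrogenase A, had 712, 875 and 1362 CPM in WT and 1463, 2020 and 2398 CPM in IKO mice (log2 fold change 0.99, adjusted p = 0.0116). For Bnip3 and Ldha every IKO mouse lay above every WT mouse, as in 1.83% of all tested genes. Pfkfb3, which makes an activator of glycolysis, had a median of 14.8 CPM in WT and 34.0 CPM in IKO mice with overlap (log2 fold change 1.42, adjusted p = 0.0156). The other 8 genes induced by HIF were not called.

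The lists on cytosolic iron sensing, systemic iron signalling and folate had 0 calls by edgeR among 5, 4 and 4 tested genes. At an unadjusted p under 0.05, 2 genes of cytosolic sensing were higher, of which DESeq2 called 1, and 0 in the other lists by either measure. In cytosolic sensing the smallest p was that of Pcbp2, an iron chaperone (log2 fold change 0.49, adjusted p = 0.0895), while Pcbp1, which delivers iron to ferritin, had 0.15 (adjusted p = 0.565) and Ncoa4, the receptor for ferritin breakdown, -0.04 (adjusted p = 0.957). In systemic signalling it was Hfe (log2 fold change -0.62, adjusted p = 0.229). Hamp, which encodes the iron hormone hepcidin made mainly in liver, had 32 counts in all 7 WT libraries and 11 in all 7 IKO libraries and was not tested. In the folate list, which was set beside Slc46a1, it was Slc19a1, the reduced folate carrier (log2 fold change 0.32, adjusted p = 0.390), and the list median was -0.13.

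**Figure D5:**
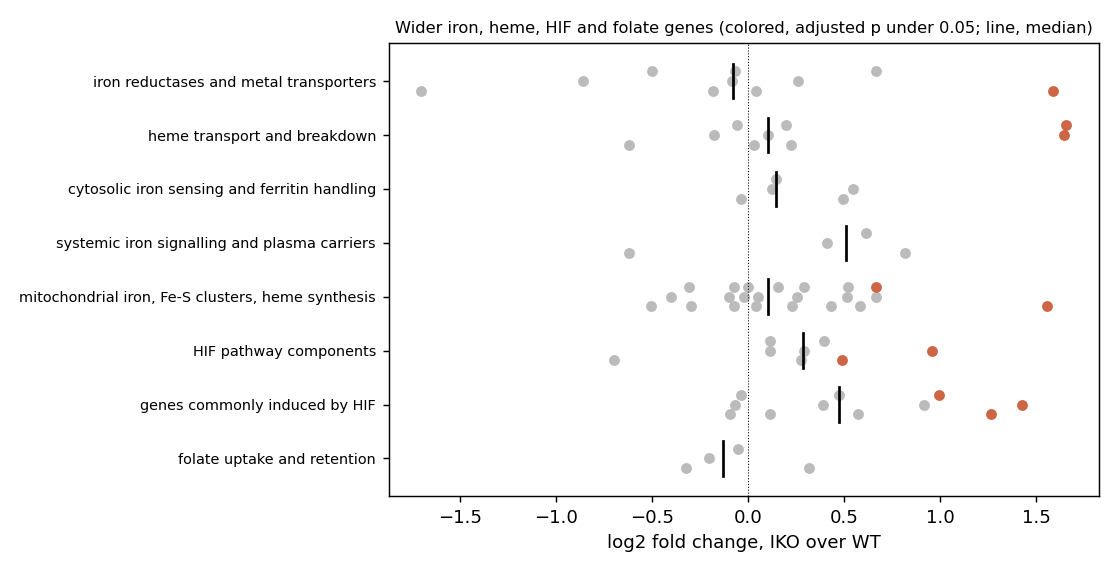
Each point is the log2 fold change, IKO over WT, of 1 tested gene in the 8 wider lists, colored where the adjusted p was under 0.05, with a line at the list median. All 10 colored points lie above 0, and the highest list medians are 0.51 (systemic signalling, with 4 tested genes) and 0.47 (genes induced by HIF).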

How the data were processed

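RNA of ileum mucosa from 7 WT and 7 IKO mice was read from the deposited tables of counts and of FPKM. Per the paper's methods and the submitters' processing notes, the authors aligned cleaned paired-end reads with HISAT2 2.0.5 to mm10 and deposited whole-number counts per gene from featureCounts 1.5.0-p3, not normalized. Strandedness and the treatment of multi-mapping reads are not given in the sources used here. The deposited FPKM are the counts per base of gene length divided by 1 factor per library, as checked on the values, and were used only for levels between genes, ratios and alternatives. Genotypes came from the sample titles, and KO columns were read as IKO. Per the paper the WT mice were littermates of IKO mice, and the labels do not tie mice to litters or dates.

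Counts were filtered with filterByExpr, scaled with TMM and tested with edgeR 4.0.16 (glmQLFit, glmQLFTest; R 4.3.3), genotype only. The log2 CPM used a prior count of 2, and intervals are at 95%. The method was tested on simulated data. The deposited gene positions matched GENCODE vM21 in 53499 of 54409 shared identifiers. The alternatives were DESeq2 1.42.0, RLE scaling, omission of the filter, a minimum of 10 counts per sample, limma 3.58.1 on log2 FPKM with pseudocounts of 1 and 0.1, a replicate block, each mouse left out, WT 3 and IKO 4 left out, mitochondrial genes left out, and voom sample weights. The pair of Slc40a1 and Fabp6 and the search with 1 unpaired base were added after the data were seen.

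All 10 iron genes are named. From the wider lists, called genes are named (at most 5 a list), or the gene with the smallest p where none was called, and Pcbp1, Ncoa4, Aco1, Hmox1, Hif1a and Hamp whatever their result. The values of 1 called gene of the wider lists are not reported here. The genes and lists were chosen with earlier results of these data known. Depth limits the precision of Cybrd1 and Hamp most.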

Additional observations from a re-analysis of the deposited data

Results flagged for a closer look

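In the log2 CPM of the iron genes and the 3 ratios, 26 groups of 7 mice were examined for a value far from the rest. Such values were found in 2 groups, where chance gives about 1 in 20, or 1.3 of the 26. Both belong to IKO 4 and share the same Tfrc value. Its Tfrc level was 5.38 on the log2 CPM scale against 7.12 in the nearest IKO mouse, a gap of 0.692 of the group's range. Its Tfrc to Fth1 ratio was -8.46 on the log2 FPKM scale against -6.02 in the nearest IKO mouse, a gap of 0.625 of the range.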

How the results depend on the processing

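Values given for single genes are log2 fold changes, IKO over WT. Slc46a1 kept its call in 23 of 25 alternatives and lost it with limma on log2(FPKM + 1) without a filter (1.53, adjusted p = 0.0702). Epas1 kept its call in 23 of 25 and lay between 0.61 and 0.75 with each mouse left out, losing the call without WT 7. Fth1 was called by DESeq2 alone (0.55). Cybrd1 was -0.18 with limma on log2(FPKM + 1) without a filter, where the pseudocount exceeds its level. Ireb2 was 0.0092 without WT 3 and IKO 4 and ran from -0.31 to 0.059 with each mouse left out. The number of iron genes called higher was 1 with limma without a filter and 1 to 2 with each mouse left out. The wider lists gave 6 higher calls with limma without a filter and 6 to 11 with each mouse left out (6 without IKO 1 or without IKO 5), and, as lower calls, 2 by DESeq2, 1 with voom weights and 0 to 1 with each mouse left out. Over all genes, 1200 calls became 2484 by DESeq2, 508 without a filter, 614 with limma without a filter, 648 without WT 3 and IKO 4, 1889 with voom weights and 515 to 1371 with each mouse left out (lowest without IKO 5). The split of 607 higher and 593 lower calls was 708 and 328 with limma on log2(FPKM + 1), where the median log2 fold change of all genes was 0.02 in place of -0.09. The log2 difference of the Slc40a1 to Slc11a2 ratio was -0.25 with 1 FPKM added and -0.26 to 0.43 with each mouse left out, that of Tfrc to Fth1 -0.15 to 0.54. Without WT 3 and IKO 4, r in IKO mice was 0.33 for Slc11a2 and Cybrd1 and -0.10 for Tfrc and Slc11a2. The causes were not tested.

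Of the genes named as called in the wider lists, Slc31a1, Abcg2, Alas1 and Bnip3 were called in all 25 alternatives, Ldha and Pfkfb3 in 24, Egln3 in 20, Flvcr2 in 17 and Hif1an in 8.

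WT and IKO mice carry the same numbers 1 to 7, which are names of different mice. Deviations of same-numbered mice correlated between -0.31 and 0.23, and 1 of 7 mice correlated best with its own number, so that the numbers were not taken to pair the mice. With the replicate number as a block, Slc46a1 was 1.84 (adjusted p = 0.0667), Epas1 0.66 (adjusted p = 0.0584), 0 iron genes and 5 genes of the wider lists were called higher, and 362 of all genes were called.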
